A study of Mus musculus with 6 samples.

Results

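The host genes described here are the 100 genes, among 3468 that gave rise to circular RNA (circRNA) in mouse liver, whose deposited Gene Ontology annotation held vesicle-mediated transport (60 genes) or endocytosis (45 genes), with 5 genes holding both. The 2 terms were held by 130 host genes, of which 23 were left out because they also held a term for GTPase regulation, ubiquitination or lipid metabolism, 6 because of an insulin or nutrient-sensing pathway, and 1 by name. The 100 genes gave 236 of the 7469 circles and 991 of the 36218 back-spliced reads, or 2.74%. The livers came from male C57BL/6J mice aged 12 weeks, with no genotype given beyond the strain, that had been fed either a high-fat diet (HFD, 3 libraries) or a low-fat control diet (LFD, 3 libraries). The comparison asks which circRNAs differ in liver between mice made obese by diet and their controls. Ribosomal RNA was depleted, and linear RNA was then digested with RNase R according to the methods of the study. The labels do not say whether each library is a separate mouse, so the p-values measure the spread between these samples.

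A circRNA forms when the end of an exon is spliced back to the start of the same exon or of an earlier one, and it is recognised by reads that cross this back-splice junction. Endocytosis brings receptors and their cargo from the cell surface into vesicles, through clathrin coats and their adaptors, membrane-bending proteins and dynamin, and the vesicles fuse with early endosomes, from which cargo is recycled or sent to lysosomes. In the opposite direction, COPII and COPI coats carry proteins between the endoplasmic reticulum (ER) and the Golgi, and SNARE proteins drive the fusion of vesicles with their target membranes. Hepatocytes use these routes to secrete plasma proteins and to take up lipoproteins, iron-loaded transferrin and hormones.

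The libraries held between 5384 and 6590 back-spliced reads each, so that 1 read was worth between 0.229 and 0.277 SRPBM (the authors' library-scaled unit, spliced reads relative to mapped reads). Reads cannot tell fewer cells of a type from less RNA per cell in whole liver. Hepatocyte markers gave circles for 11 of 12 genes, with 12 to 25 summed reads in the HFD libraries and 6 to 39 in the LFD libraries. Kupffer cell markers gave reads for 3 of 12 genes (0 to 2 reads in HFD and 2 to 4 in LFD), sinusoidal endothelial markers for 4 of 12 (0 to 2 and 1 to 4), stellate cell markers for 2 of 12 (0 to 1 and 0), cholangiocyte markers for 1 of 8 (0 and 0 to 3) and lymphocyte markers for 0 of 10. Among all circles, intronic ones took 10.8% of the reads in HFD1 and 8.28% in LFD3 against 4.56% to 5.43% in the other 4 libraries, so these 2 libraries stood apart, 1 in each diet. In the following, reads are given for replicates 1, 2 and 3 of HFD and then of LFD, and counting intervals cover counting error only, since PCR copies were not marked.

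With HFD the 100 genes gave 145, 182 and 186 reads, and with LFD 149, 185 and 144. As a share of all back-spliced reads this was 2.26%, 2.76% and 3.10% in HFD (2.71 ± 0.42%, SD, n = 3) and 2.77%, 3.34% and 2.29% in LFD (2.80 ± 0.53%, SD, n = 3). The shares overlapped, and the lowest of each diet came from HFD1 and LFD3, the libraries with the most intronic reads; the part of that difference in the shares was not tested. Each library held reads of 38 to 45 of the 100 genes and of 57 to 66 of the 236 circles. Reads were concentrated on few genes: 16 of the 100 genes, against 11.3% of all host genes, had at least 20 reads. These 16 held 69.5% of the members' reads, and the growth hormone receptor gene Ghr alone held 24.3%. At the other end, 58 genes had 3 reads or fewer and 31 had a lone read (28.9% of all host genes). Reads were found in HFD libraries only for 28 genes, in LFD libraries only for 26 and in both diets for 46. This split was not counted over all host genes. A gene with reads in a lone library is found in 1 diet only, and this was so for 46 members and for 1634 of all 3468 host genes.

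**Figure D1:**
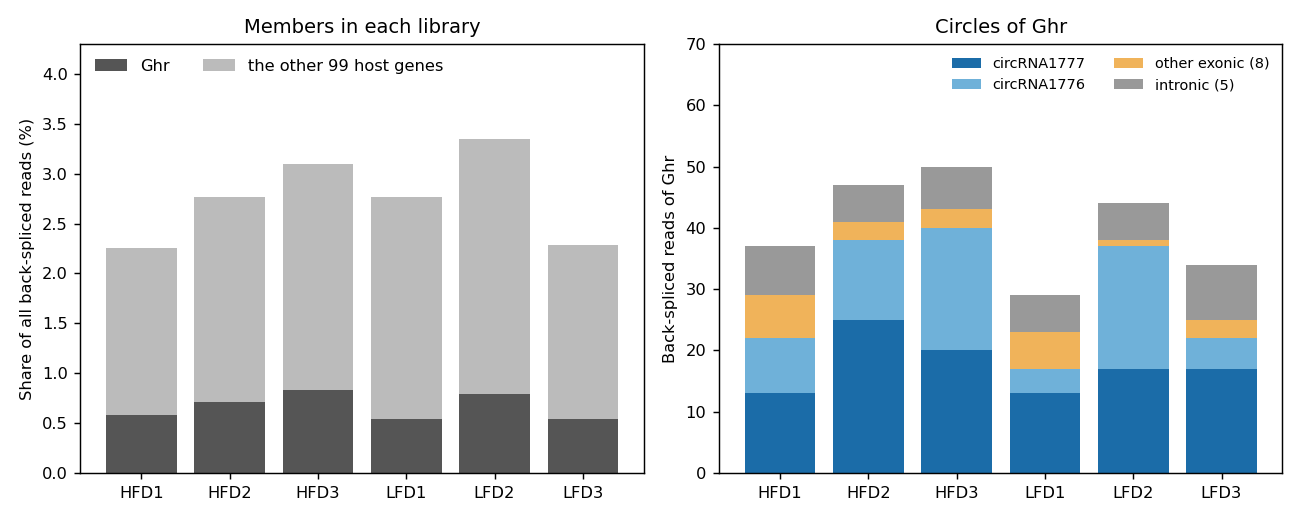
Left, share of all back-spliced reads (%, y axis) taken by Ghr (dark) and by the other 99 host genes (light) in each of the 6 libraries (x axis). Right, back-spliced reads of Ghr in each library, stacked by circle. The shares run from 2.26% to 3.34% and overlap between the diets, and circRNA1777 and circRNA1776 make up most of the Ghr reads in every library.

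In type, number of exons and spliced length the members were close to the whole list of circles. The shares of coding-only circles and of circles that started at exon 2 lay further apart. Exonic circles made up 206 of the 236 (87.3%, against 85.8% of all circles) and intronic circles 30 (12.7%, against 13.03%). The exonic circles held a median of 3 exons and, where both ends could be placed on exons of the listed transcript (201 circles), a median spliced length of 400 bases (398 over all circles). Coding exons alone made up 174 of these 201 circles (86.6%, against 77.4% over all circles placed), and 40 (19.9%, against 28.7%) started at exon 2, the first exon with an upstream splice site. None of the 201 started at exon 1 or held the last exon of its transcript. Most circles were rare, as 176 of 236 (74.6%, against 72.7% over all circles) had reads in a lone library, and 7 had reads in all 6 libraries. These 7 came from Ghr (3 circles), Optn, Atp9a, Dgkd and Ap3s1.

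The diet comparison was fitted with edgeR's quasi-likelihood test over all host genes with reads in at least 2 libraries, and a gene was called at an unadjusted p under 0.05 and a log2 fold change of at least 1, the thresholds of the study. Of 1834 host genes tested, 43 were called (2.34%), 26 higher and 17 lower in HFD, and none had an adjusted p under 0.05. Of the 100 members, 54 could be tested, and 0 were called. The smallest unadjusted p of a member in this edgeR fit was 0.0729, so that 0 members were under 0.05 without adjustment, and the smallest adjusted p was 0.810. DESeq2 and edgeR's exact test also called 0 members, whereas limma on log2(SRPBM + 0.25) called 72 of the 1834 host genes, 2 of them members (Stx6 and Tfrc), a similar share. The median log2 fold change, HFD over LFD, was -0.08 over the 54 members and -0.05 over all host genes tested, with 24 members above 0 and 30 below. The SRPBM values of the 2 diets did not overlap for 2 of the 54 members (Stx6 and Tfrc), where 6.22% of all host genes tested did not overlap. Tfrc passed the filter through LFD alone, where it is high, so neither its limma call nor its separation adds to its reads.

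**Figure D2:**
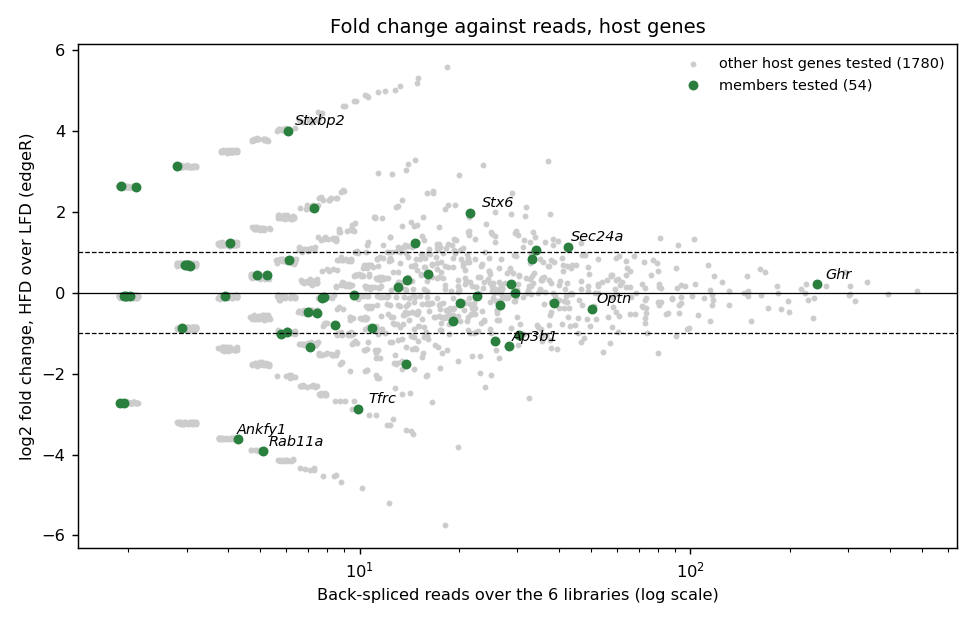
log2 fold change of each host gene tested (y axis, HFD over LFD, edgeR) against its back-spliced reads over the 6 libraries (x axis, log scale, points spread slightly sideways). Green points are the 54 members, grey points the other host genes, and dashed lines mark a log2 fold change of 1 in either direction; Ghr, with 241 reads, lies near 0, and the members far from 0 have few reads.

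At the level of circles, the same edgeR test covered 2041 circles with reads in at least 2 libraries and called 48 of them (2.35%). Of the members' 236 circles, 60 could be tested and 0 were called, with 0 under an unadjusted p of 0.05 and a smallest p of 0.0574 for an Ehbp1 circle described further on. DESeq2 and edgeR's exact test called 0 of these circles, and limma called 79 of all 2041, 2 of them members' circles (circRNA4677 of Snx5 and mmu_circ_0000091 of Stx6). circRNA4677 had no reads in HFD and entered the test only through LFD, so neither its call nor its separation adds to its reads. The same 2 circles were the ones whose SRPBM did not overlap between the diets (3.33% of 60, against 4.95% of all circles tested). The host gene fold changes were imprecise, with a median standard error of 1.82 on the log2 scale over the members tested and 1.83 over all host genes tested. Among genes with at least 20 reads it was 0.98 over the 16 members and 0.87 over all host genes. The part of depth in the absence of calls among members was not tested.

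Ghr encodes the growth hormone receptor, a cytokine receptor that is abundant in hepatocytes and is internalised after it binds the hormone. It lies on the minus strand at chr15:3317760-3583492 (GRCm38, GENCODE M21) and ranked 11th among all host genes by reads. It gave 37, 47 and 50 reads in HFD (11.3 ± 2.54 SRPBM, SD, n = 3) and 29, 44 and 34 in LFD (9.62 ± 2.30 SRPBM, SD, n = 3). The diets overlapped, since LFD2 lay above HFD1. The log2 fold change was 0.21 ± 0.37 (SE, 95% interval -0.51 to 0.93, edgeR adjusted p = 0.99). This interval is the narrowest that any member allowed.

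The reads of Ghr came from 15 circles, of which circRNA1777 held 105 reads and circRNA1776 held 71. circRNA1777 (chr15:3544026-3551685) had 13, 25 and 20 reads in HFD and 13, 17 and 17 in LFD. circRNA1776 (chr15:3457931-3551685) had 9, 13 and 20 reads in HFD and 4, 20 and 5 in LFD, so that its share of the Ghr reads ranged from 13.8% in LFD1 to 45.5% in LFD2, both ends of the range lying within the LFD group. These circles and circRNA1775 (chr15:3388649-3551685, 11 reads) begin with the same exon at chr15:3551533-3551685, which holds no coding sequence in any annotated Ghr transcript and lies upstream of the first coding exon; the 3 together held 77.6% of the Ghr reads. They end in different exons: circRNA1776 at the exon chr15:3457930-3458008, which holds coding sequence, circRNA1775 at the coding exon chr15:3388648-3388713, and circRNA1777 inside a noncoding exon (chr15:3543837-3544233), 189 bases from its downstream border. The junctions are shown 5′ to 3′ as 15 bases before and, in capitals, 15 bases after the back-splice, read from GENCODE M21 transcripts at the listed coordinates, because the capitals show the shared first exon.
circRNA1777: caggaggcagaggcaAGAATGTATAGTGAG
circRNA1776: ttttctggaagtgagAGAATGTATAGTGAG
circRNA1775: ccaagcctggggacaAGAATGTATAGTGAG
The last 2 of these are listed 1 base inside the annotated exon border. A further 42 reads (17.4%) fell on 5 Ghr circles listed as intronic, of which ciRNA343 (chr15:3457930-3551722, 27 reads) spans almost the same interval as circRNA1776 but is listed as ending 37 bases outside the first exon. Only 10 reads, on 6 circles, fell on exons 2 to 8 of the 11-exon coding transcript with both ends on exon borders.

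**Figure D3:**
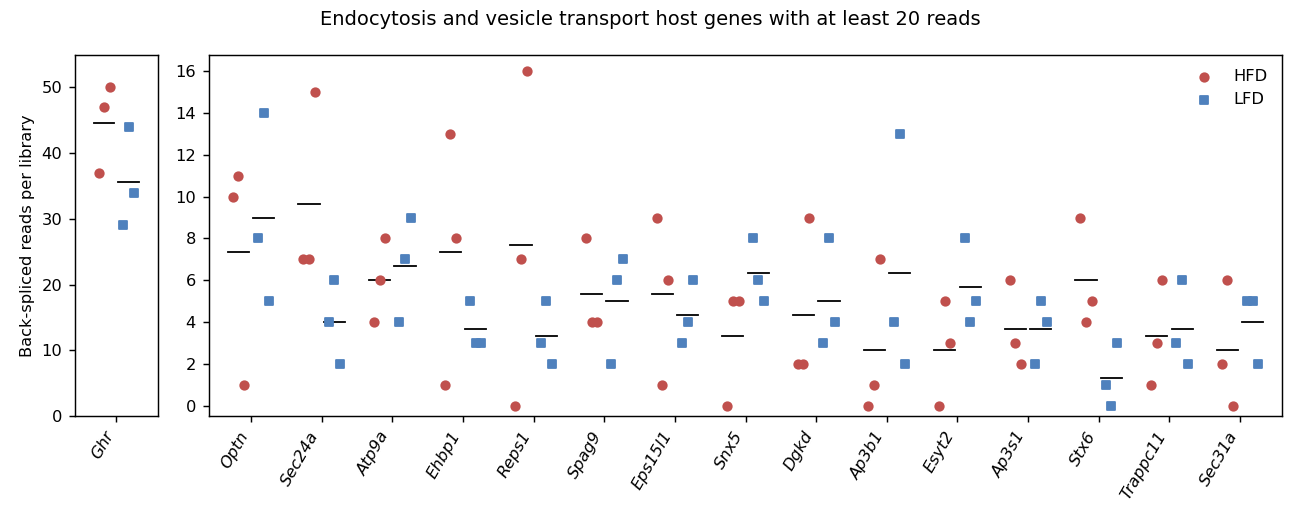
Back-spliced reads per library (y axis, separate scale for Ghr) of the 16 members with at least 20 reads, with a red circle for each HFD library, a blue square for each LFD library and a black line at each group mean. Read counts of the diets overlap for each of these genes except Stx6 (4 to 9 reads in HFD, 0 to 3 in LFD) and Sec24a (7 to 15 and 2 to 6).

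Stx6 was the only member of the SNARE and exocytosis list with at least 20 reads, and its diets did not overlap in reads or in SRPBM. Stx6 encodes syntaxin 6, a SNARE of the trans-Golgi network and endosomes (plus strand, chr1:155158715-155208256). It gave 9, 4 and 5 reads in HFD and 1, 0 and 3 in LFD, all from a lone circle, mmu_circ_0000091 (chr1:155173986-155197435), which holds exons 2 to 7 of 8. The lowest HFD library lay 1 read above the highest LFD library. In SRPBM this was 1.48 ± 0.54 in HFD and 0.35 ± 0.40 in LFD (SD, n = 3). The ratio of the summed reads, each taken per library total of its diet, was 4.07 with a 95% counting interval of 1.34 to 16.5. The edgeR log2 fold change was 1.98 ± 1.20 (SE, adjusted p = 0.81), and the two-sided exact permutation p was 0.1, the smallest that 3 against 3 libraries can give. Any gene whose diets do not overlap gets this permutation p, so it adds nothing to the separation. With a library left out the log2 fold change ran from 1.43 (without LFD2) to 3.13 (without LFD3), and it passed the thresholds of a call only without LFD3. Without LFD3 the gene passed the filter through HFD alone, the group where it is high, so that call adds nothing to its reads. Because this circle is the clearest separation among the members with many reads, its junction is given as 25 bases before and, in capitals, 25 bases after the back-splice.
mmu_circ_0000091: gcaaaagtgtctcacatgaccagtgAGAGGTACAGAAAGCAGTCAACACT
The 13 members of the list together gave 14, 14 and 12 reads in HFD and 9, 8 and 8 in LFD, and without Stx6 5, 10 and 7 against 8, 8 and 5. Stxbp2, which encodes a Munc18 protein that assists SNARE assembly, was picked after its values were seen, and it gave 1, 5 and 0 reads in HFD and none in LFD. HFD2 held 5 of the 6 reads. Its groups overlapped at 0, and the reads came from a pair of entries that differ by 1 base at the start. Scamp1, a secretory carrier membrane protein, gave 3, 0 and 2 reads in HFD and 0, 2 and 3 in LFD over 4 circles, each holding exon 3.

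Of the cargo and scavenger receptors, 7 members gave 28 reads, 10 in HFD and 18 in LFD, and without Tfrc 9 in each diet. Tfrc, the transferrin receptor that brings iron into cells, gave 0, 0 and 1 reads in HFD and 3, 4 and 2 in LFD. Every LFD library lay above every HFD library, by at least 1 read. The ratio of LFD over HFD was 9.95 with a 95% counting interval of 1.38 to 436, the edgeR log2 fold change was -2.87 ± 1.82 (SE, adjusted p = 0.81), and the two-sided exact permutation p was 0.1. With a library left out the fitted log2 fold change ran from -4.71 to -2.41. The -4.71 came without HFD3, which leaves HFD at 0, so it is no measured fold. Tfrc passed the filter of reads in at least 2 libraries through LFD alone, the group where it is high. Its p-values and its separation therefore add nothing to its reads. The reads were split over 3 circles: mmu_circ_0006199 (exons 7 to 9 of 19) had 4 reads in LFD2 and 2 in LFD3, circRNA4285 (exons 10 to 11) had 3 in LFD1, and the lone HFD read was intronic. Lrp1, a receptor for lipoproteins and protease complexes, gave 1, 0 and 2 reads in HFD and 0, 0 and 2 in LFD on 5 circles, 3 of them intronic. Receptors known from macrophages or sinusoidal endothelial cells had few reads, with 4 for Mrc1, 3 for Stab2, 2 for Msr1 and 1 for Cd163. Among the Kupffer cell and macrophage markers, Adgre1 gave 2, 0 and 1 reads in HFD and 2, 2 and 2 in LFD, Lyz2 and Vsig4 gave 1 each, and Clec4f and Timd4 gave none. Among the endothelial markers, Stab2 gave 2, 1 and 0 reads in HFD and none in LFD. Ptprb gave 3 reads and Pecam1 and Tek 2 each, all of them in LFD libraries, and Stab1 and Lyve1 gave none. The part of these cells in the receptors' reads was not tested.

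The clathrin coat and its adaptors were represented by 9 members with 92 reads, 18, 11 and 26 in HFD and 8, 16 and 13 in LFD. Reps1 and Eps15l1, both EH-domain proteins that assemble with adaptor proteins at clathrin-coated pits, held most of them. Reps1 gave 0, 7 and 16 reads in HFD and 3, 5 and 2 in LFD, so that the HFD group held both the lowest and the highest library. Its log2 fold change of 1.04 ± 0.93 (SE, edgeR adjusted p = 0.99) rested on HFD3, without which it was -0.13. Its main circle, mmu_circ_0000148 (chr10:18089448-18096336, exons 2 to 8 of 17, 982 bases), held 29 of the 33 reads. Eps15l1 gave 9, 1 and 6 reads in HFD and 3, 4 and 6 in LFD, which overlapped throughout (0.21 ± 0.96 on the log2 scale, SE). The coat subunits themselves gave few circles, with 3 reads for Cltc, the clathrin heavy chain, 1 for the light chain gene Clta, and 4 and 1 for the AP-2 subunit genes Ap2b1 and Ap2m1. Picalm, which gathers clathrin at the membrane, gave 6, 1 and 1 reads in HFD and 1, 2 and 3 in LFD.

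Membrane bending, fission and actin genes contributed 7 members and 23 reads. Myo1e, a long-tailed myosin found at sites of endocytosis, gave 0, 3 and 0 reads in HFD and 6, 3 and 1 in LFD over 6 circles. Its groups overlapped, with LFD3 below HFD2, and the log2 fold change was -1.77 ± 1.51 (SE, edgeR adjusted p = 0.99). Without HFD2, which leaves HFD at 0, the fitted value was -4.86 and passed the thresholds of a call (edgeR adjusted p = 0.79), but the gene then enters the test only through LFD and the call adds nothing to its reads. Dnm2, the dynamin that pinches off vesicles, gave 3 reads, all in LFD2 and all on an intronic circle, and could not be tested.

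In the early endosome and recycling group, 7 members gave 54 reads. Ehbp1, which links EH-domain proteins to actin during endocytic transport, gave 1, 13 and 8 reads in HFD and 5, 3 and 3 in LFD. The HFD libraries lay on both sides of the LFD libraries, and the log2 fold change was 0.83 ± 0.92 (SE, edgeR adjusted p = 0.99), 0.18 without HFD2 and 1.32 without HFD1. Rab11a, the small GTPase of recycling endosomes, gave no reads in HFD and 4, 1 and 0 in LFD from the circle mmu_circ_0015782 (chr9:64725502-64728429, exons 2 to 4 of 5). LFD1 held 4 of the 5 reads. LFD3 was at 0 like the HFD libraries, and this gene had the smallest unadjusted p among the members (edgeR adjusted p = 0.81). Without LFD3 it passed the thresholds of a call (edgeR adjusted p = 0.77). It entered the test only through the LFD libraries, the group where it is high, so that these p-values add nothing to the reads themselves. Rab22a, a small GTPase of early endosomes with as many reads, gave 2, 1 and 0 in HFD and 0, 0 and 2 in LFD, which overlapped. Ankfy1, a Rab5 effector picked after its values were seen, gave no reads in HFD and 3, 0 and 1 in LFD. LFD2 was at 0 like the HFD libraries. Ankfy1 also entered the test only through LFD, the group where it is high, so that its fit adds nothing to its reads.

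The retromer and sorting nexin group held 3 members and 73 reads. Atp9a, a phospholipid flippase of endosomes and the trans-Golgi network, gave 4, 6 and 8 reads in HFD and 4, 7 and 9 in LFD, nearly the same range in both diets (log2 fold change -0.26 ± 0.84, SE). Its main circle, mmu_circ_0009619 (chr2:168705123-168710976, exons 2 to 4 of 28), held 73.7% of the reads, and 4 of its 5 exonic circles began with exon 2. Snx5, a sorting nexin that shapes endosomal tubules, gave 0, 5 and 5 reads in HFD and 8, 6 and 5 in LFD. HFD2 and HFD3 reached the lowest LFD library, and the log2 fold change was -1.04 ± 0.97 (SE, edgeR adjusted p = 0.99). Of its 5 circles on the 13-exon transcript, 4 held exon 7. circRNA4677 (chr2:144255340-144257993, exons 5 to 8) gave 4, 1 and 2 reads in LFD and none in HFD, whereas mmu_circ_0001082 (exons 7 to 8) gave reads in both diets. The ESCRT and lysosome tethering group gave 19 reads from 5 members, 15 of them from Vps41, a subunit of the HOPS tethering complex, with 4, 5 and 0 in HFD and 0, 3 and 3 in LFD. The other 4 members of that group, Gga1, Vps11, Vps39 and Tgfbrap1, gave 1 read each.

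Transport between the ER and the Golgi gave 18 members and 122 reads, 17, 21 and 29 in HFD and 16, 19 and 20 in LFD. Sec24a, the COPII subunit that selects cargo, gave 7, 7 and 15 reads in HFD and 4, 6 and 2 in LFD. The raw reads of every HFD library were above those of every LFD library, but HFD1 and LFD2 crossed once reads were scaled to SRPBM, where the means were 2.47 ± 1.35 and 1.08 ± 0.57 (SD, n = 3). The log2 fold change was 1.13 ± 0.84 (SE, 95% interval -0.51 to 2.78, edgeR adjusted p = 0.88). The reads were spread over 12 circles, the most of any member after Ghr, and 8 of the 10 circles placed on the 23-exon transcript held exon 8. The circle with the most reads, mmu_circ_0003100 (chr11:51721815-51729578, exons 8 to 11), held 29.3% of them. Trappc11, a subunit of the TRAPP tethering complex, gave 1, 3 and 6 reads in HFD and 3, 6 and 2 in LFD, and Sec31a, of the outer COPII coat, gave 2, 6 and 0 in HFD and 5, 5 and 2 in LFD. Both overlapped widely, with log2 fold changes of -0.25 ± 1.14 and -0.70 ± 1.17 (SE). With a library left out, that of Sec31a ran from -1.98 (without HFD2) to -0.18 (without HFD3).

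Golgi and trans-Golgi genes gave 10 members and 119 reads, 21, 16 and 15 in HFD and 19, 32 and 16 in LFD. Optn encodes optineurin, an adaptor for Rab8 and myosin VI in Golgi export and autophagy. It gave 10, 11 and 1 reads in HFD and 8, 14 and 5 in LFD, and the log2 fold change was -0.40 ± 0.75 (SE, edgeR adjusted p = 0.99). Of its 49 reads, 44 came from mmu_circ_0010003 (chr2:5052988-5054716, minus strand), which joins exons 2 and 3 and holds the start of the coding sequence with untranslated sequence before it. The junction is shown with 15 bases on either side because it was the exonic circle with the most reads outside Ghr.
mmu_circ_0010003: gaaaagccattggaaGACCTGTTACCATGT
Ap3b1, the large beta subunit of the AP-3 adaptor that sorts cargo to lysosomes, gave 0, 1 and 7 reads in HFD and 4, 13 and 2 in LFD. Its log2 fold change was -1.32 ± 1.02 (SE, edgeR adjusted p = 0.94), and with a library left out it ran from -3.52 without HFD3, where it passed the thresholds of a call, to -0.28 without LFD2. Without HFD3 the gene passed the filter through LFD alone, the group where it is high, so that call adds nothing to its reads. The 27 reads came from 10 circles between exons 16 and 26 of 27, 5 of which held exon 23. Ap3s1, a small subunit of the same complex, gave 6, 3 and 2 reads in HFD and 2, 5 and 4 in LFD from a lone circle of exons 2 to 3.

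Further members belong to none of these lists. Spag9, a scaffold that ties JNK signalling and vesicles to kinesin and dynein, gave 8, 4 and 4 reads in HFD and 2, 6 and 7 in LFD, with group means of 1.31 and 1.35 SRPBM. Dgkd, a diacylglycerol kinase, gave 2, 2 and 9 reads in HFD and 3, 8 and 4 in LFD, 27 of them from mmu_circ_0000058 (chr1:87880368-87881939, exons 2 to 3, 192 bases). Fchsd2, an F-BAR and SH3 domain protein of endocytic sites, had 15 reads, with 2, 9 and 0 in HFD and 2, 1 and 1 in LFD. Esyt2, an extended synaptotagmin that tethers the ER to the plasma membrane, gave 0, 5 and 3 reads in HFD and 8, 4 and 5 in LFD, all from circRNA2970 (exons 2 to 6). The diets overlapped for all 4 genes, and the edgeR log2 fold changes of Spag9, Dgkd, Fchsd2 and Esyt2 were 0.00, -0.31, 1.24 and -1.20. HFD1 gave 0 reads for 4 of the 16 genes with at least 20 reads (Reps1, Snx5, Ap3b1 and Esyt2), HFD3 and LFD2 for 1 each and the other libraries for none; over all host genes with at least 20 reads, 6.14% were at 0 in HFD1 and 5.12% to 6.91% in the other libraries.

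The counts of several members were divided over entries whose ends lie 1 to 3 bases apart. Among the 236 circles, 21 (8.90%, against 10.1% of all circles) had another entry within 3 bases at both ends, in 10 sets. For the 8 pairs that are 1 base apart at one end, there were 28 combinations of pair and library with reads, and in 0 of them did both entries have reads; over all circles this was so in 23 of 1299 combinations. The listed transcripts of such entries can differ, and for Trappc11 they give spliced lengths of 454 bases (mmu_circ_0001675) and 779 bases (circRNA4028). The following junctions, with 25 bases before and, in capitals, 25 bases after the back-splice, show how little the junctions themselves differ. The upper of each pair ends on the annotated exon border and the lower 1 base before it. For Ehbp1 the capitals of the last entry also start 3 bases later.
Eps15l1 mmu_circ_0001688: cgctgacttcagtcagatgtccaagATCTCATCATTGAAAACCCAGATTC
Eps15l1 circRNA4872: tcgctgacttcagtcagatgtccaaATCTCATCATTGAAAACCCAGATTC
Trappc11 mmu_circ_0001675: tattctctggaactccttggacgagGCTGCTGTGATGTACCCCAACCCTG
Trappc11 circRNA4028: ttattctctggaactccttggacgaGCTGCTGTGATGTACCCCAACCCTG
Snx5 mmu_circ_0001082: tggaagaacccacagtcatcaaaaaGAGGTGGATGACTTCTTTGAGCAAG
Snx5 circRNA4046: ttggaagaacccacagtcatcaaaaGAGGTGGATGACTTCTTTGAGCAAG
Ehbp1 mmu_circ_0000245: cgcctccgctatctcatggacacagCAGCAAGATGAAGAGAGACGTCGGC
Ehbp1 circRNA3007: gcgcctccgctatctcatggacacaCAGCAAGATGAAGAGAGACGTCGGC
Ehbp1 circRNA3006: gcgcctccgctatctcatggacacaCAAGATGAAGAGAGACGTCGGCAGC
For Eps15l1, mmu_circ_0001688 had 9, 1 and 5 reads in HFD and 0, 4 and 6 in LFD, and circRNA4872 had its 3 reads in LFD1, the library where the other entry was at 0. For Trappc11, mmu_circ_0001675 had 3 reads in HFD2 and 6 in LFD2, and circRNA4028 had 6 in HFD3, 3 in LFD1 and 2 in LFD3. For Snx5, mmu_circ_0001082 had 3 reads in HFD2, 5 in LFD2 and 3 in LFD3, and circRNA4046 had 5 in HFD3. In each of these pairs the entries alternate between libraries and do not follow the diet.

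The Ehbp1 entries matter most for the diet comparison. Alone, mmu_circ_0000245 (chr11:22053432-22068506, exons 15 to 20 of 24) had 0 reads in HFD and 5, 2 and 0 in LFD, and it had the smallest unadjusted p of the members' circles (edgeR adjusted p = 0.70). Without LFD3 it passed the thresholds of a call (edgeR adjusted p = 0.67). It entered the test only through LFD, where it is high, and these p-values add nothing to its reads. circRNA3007 (chr11:22053433-22068506) had 2 reads and circRNA3006 (chr11:22053433-22068503) 3 reads, all in HFD2. Summed over the 3 entries there were 0, 5 and 0 reads in HFD and 5, 2 and 0 in LFD, so that the diets overlapped fully. With only the entries 1 base apart summed, the edgeR log2 fold change was -1.84 ± 1.93 (SE, adjusted p = 0.98). A difference of 3 bases also separates Sec24a entries, where the exon is annotated with both borders: mmu_circ_0003100 had 3, 0 and 4 reads in HFD and 2, 3 and 0 in LFD, and mmu_circ_0003099 (chr11:51721815-51729575) had 1 read in HFD3. Their junctions differ by the 3 bases at the start of the capitals.
Sec24a mmu_circ_0003100: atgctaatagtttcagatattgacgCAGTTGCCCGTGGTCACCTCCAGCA
Sec24a mmu_circ_0003099: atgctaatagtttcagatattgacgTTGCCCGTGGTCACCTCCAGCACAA

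**Figure D4:**
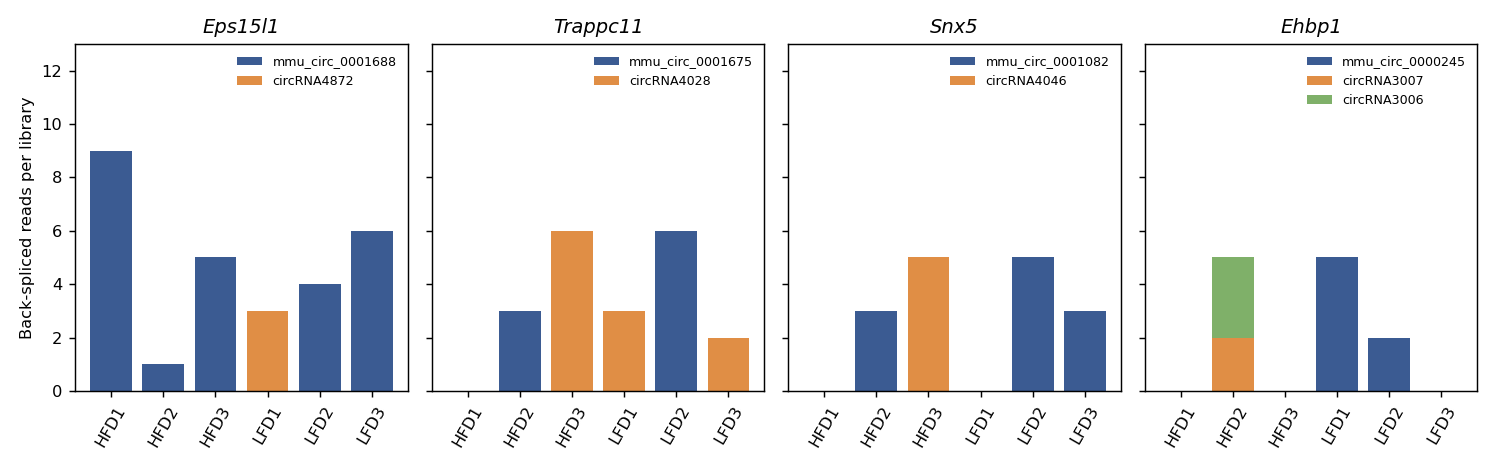
Back-spliced reads per library (y axis) of entries whose ends lie 1 to 3 bases apart, stacked by entry for Eps15l1, Trappc11, Snx5 and Ehbp1 over the 6 libraries (x axis). For Eps15l1, Trappc11 and Snx5 each library holds reads of 1 entry at most, whereas HFD2 holds reads of 2 Ehbp1 entries, and for Ehbp1 the HFD2 reads and the LFD reads fall on different entries.

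Wider lists of the same machinery gave no further calls. The 9 lists of coat, endosome, Golgi and SNARE genes hold 649 genes, of which 238 had circles in these livers and 79 were members. Of the 131 that could be tested, edgeR called 0 higher and 0 lower in HFD, beside 2.34% called over all host genes.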

How the data were processed

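Liver RNA of 3 HFD and 3 LFD libraries had been sequenced in pairs by the authors with a kit that keeps the strand. The authors trimmed reads with Cutadapt 1.9, aligned them with Bowtie2 and TopHat2 2.0.4 (versions per the submitters' processing notes) and took back-spliced reads from unmapped reads with TopHat-Fusion, CIRCExplorer2 and CIRI. The deposited table gives the count of back-spliced reads per circle and library and a normalised signal, SRPBM. The notes name the genome mm9, but the coordinates match exon borders of GENCODE M21 on GRCm38: 92.7% of the members' exonic starts and 99.5% of their ends fell on an exon border. That build was therefore used, and circle sequences were read from its transcripts.

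Counts were summed per host gene. Library totals ranged from 5384 to 6590 reads. edgeR 4.0.16 (R 4.3.3) with TMM scaling fitted all host genes, or all circles, with reads in at least 2 libraries, with Benjamini-Hochberg adjustment over all of them. A standard error is the log2 fold change over the root of the quasi-likelihood statistic. Counting intervals are exact binomial intervals of the reads of both diets (95%), of reads summed per diet and taken per library total. The fit was tested on simulated data. Alternatives were DESeq2 1.42.0, edgeR without TMM, edgeR's exact test, limma 3.58.1 on log2(SRPBM + 0.25), other filters, a replicate block, leaving out libraries and summing entries 1 base apart. Members, role lists and cell type markers were chosen with earlier results of these data known. Genes named are the 20 members with the most reads and the 2 with the most reads in each role list, unless stated otherwise; receptors, coat subunits and the other genes of a list given by reads alone were added for their role after their values were seen.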

Additional observations from a re-analysis of the deposited data

How the results depend on the processing

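The count of members called stayed at 0 of the host genes tested with DESeq2, edgeR without TMM, edgeR's exact test, no filter, reads in at least 3 libraries and a replicate block, and was 2 with limma on log2(SRPBM + 0.25). Leaving out each library in turn gave 0 to 2 members: Myo1e without HFD2, Ap3b1 without HFD3, and Rab11a and Stx6 without LFD3. The calls over all host genes went from 43 to 25 with DESeq2, 26 with edgeR's exact test, 72 with limma, 15 with the replicate block and 27 without both HFD1 and LFD3, and from 34 to 54 with a library left out. Over all circles they went from 48 to 11 with DESeq2, 12 with the exact test, 79 with limma, 10 with the replicate block and 17 without both libraries, and from 20 to 48 with a library left out. Members' circles called were 2 with limma, 1 with reads in at least 3 libraries (circRNA4677) and 0 to 3 with a library left out (circRNA4297, circRNA4800 and mmu_circ_0000245 without LFD3), and 0 in the other fits. These 3 circles and circRNA4677 had no reads in HFD, as did Rab11a and, without HFD2, Myo1e, and entered the tests only through LFD, so that their calls add nothing to their reads. Tfrc with limma and Ap3b1 without HFD3 had 1 HFD read each and passed the filter through LFD alone. Stx6 without LFD3 had 1 LFD read and passed it through HFD alone. These calls too add nothing to the reads. The cause of these shifts was not tested. Some of these fits held fewer libraries or fewer host genes. Of 269 alternative fold changes for the 16 members with at least 20 reads and Tfrc, Rab11a, Stxbp2 and Ankfy1, a set that leaves out Myo1e, 243 kept their sign and side of the threshold, 5 passed the threshold and 21 changed sign; 12 members kept their sign throughout. Sign changes were found for Atp9a (0.19 without both libraries), Spag9 (-0.071 with DESeq2, -0.022 without TMM and -0.14 without both libraries) and Eps15l1 (-0.088 with limma, -0.038 with the replicate block and -0.14 without both libraries). With a library left out, the log2 fold change ran from -0.80 to 0.061 for Optn, -0.13 to 1.62 for Reps1, -0.45 to 0.24 for Spag9, -0.42 to 0.69 for Eps15l1, -1.41 to 0.20 for Dgkd, -0.67 to 0.17 for Ap3s1 and -1.002 to 0.27 for Trappc11. Without a sign change it ran from 0.077 to 0.37 for Ghr, 0.63 to 1.52 for Sec24a, 0.18 to 1.32 for Ehbp1, 1.43 to 3.13 for Stx6, -0.55 to -0.059 for Atp9a, -1.49 to -0.49 for Snx5, -3.52 to -0.28 for Ap3b1, -1.94 to -0.66 for Esyt2, -1.98 to -0.18 for Sec31a and -4.71 to -2.41 for Tfrc. The -4.71 of Tfrc came without HFD3, which leaves HFD at 0, so it is no measured fold. The members' share of reads differed by -0.09 percentage points (HFD minus LFD), and by -0.35 to 0.18 with a library left out. Replicate numbers gave no sign of pairing: deviations of same-numbered libraries correlated at -0.15, 0.18 and -0.21 over 391 host genes. Libraries of other numbers ran from -0.30 (HFD1 and LFD2) to 0.40 (HFD1 and LFD3). With 3 libraries per diet these values cannot exclude a pairing.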
